A study of Mus musculus with 6 samples.

Results

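The Snhg14 locus is an imprinted stretch of mouse chromosome 7 in which a long noncoding host transcript carries long arrays of C/D box small nucleolar RNAs (snoRNAs). Its transcripts were followed in small RNA-seq libraries of exosomes, the small vesicles that cells release into their medium. The members were all snoRNA rows of the deposited noncoding RNA table that lie between 59.2 and 60.2 Mb of chromosome 7 (genome build GRCm38, GENCODE release M21), and all rows of the host gene Snhg14. This gave 223 of the 5880 rows, of which 208 were snoRNAs and 15 were Snhg14 transcripts. The snoRNAs were divided by length into 136 of under 88 bases and 72 of 88 bases or more.

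Exosomes came from the P19 line of mouse embryonal carcinoma cells, a pluripotent tumour line. The UD-P19 group (replicates 1 to 3) held exosomes of undifferentiated cells that were moved from serum to alpha-MEM with N2 supplement before the medium was collected. The P19N group held exosomes of neurons made from these cells with retinoic acid and kept in neurobasal medium with B27 and N2 supplements. Against dividing cells, 5-fluorouridine and uridine were given on day 3, and on day 8 after that day's medium was collected. P19N replicates 4, 5 and 6 came from medium of cultures 8, 10 and 12 days old, so that only replicates 5 and 6 followed the day 8 exposure. The labels state no other drug exposure, the culture medium of both groups held antibiotics and an antimycotic, and both groups share the single parent line. Medium, time in culture and differentiation cannot be told apart in this design, nor can culture age, replicate and the day 8 exposure within P19N. The paper describes 6 independent exosome preparations, with P19N medium collected on day 8 and on alternate days after it. It is not stated whether the 3 P19N ages came from separate cultures, and p-values measure the spread between these libraries. More of an RNA per vesicle and a larger share of vesicles that hold it cannot be told apart either.

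C/D box snoRNAs are short RNAs processed from the introns of a host transcript, with a box C near the 5′ end and a box D near the 3′ end. Most of them guide ribose methylation of ribosomal and small nuclear RNAs. In mouse and human the locus is expressed from the paternal chromosome, is most active in neurons, and continues as an antisense transcript across Ube3a. Loss of the Snord116 cluster on the paternal chromosome is tied to Prader-Willi syndrome, and Snord115 is known for a stretch complementary to the mRNA of the serotonin receptor Htr2c, while Snord64 and Snord107 are single-copy snoRNAs of the same host with no established target.

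Length separated the arrays by sequence. Grouped at 90% identity over 80% of the length, 133 of the 136 shorter snoRNAs formed one family with the Snord115 sequence and 70 of the 72 longer ones formed one family with the Snord116 sequence. No row outside the locus belonged to either family. GENCODE names 17 of the longer copies Snord116l1 to Snord116l17 and the other copies only by Gm numbers. The longest member under the limit had 79 bases and the shortest above it 88, and 129 snoRNAs had exactly 79 bases while 68 had exactly 94. All are on the minus strand. In the direction of transcription Snord107 and Snord64 come first, then the Snord116 array (chr7:59673461-59904848) and then the Snord115 array (chr7:59347681-59619095). The remaining members were Gm24983, Gm22496 and Gm22373, with 0, 8 and 2 counts over all libraries.

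The sequences are shown because the counts can be read only against how alike the copies are. They are the GENCODE sequences (GRCm38, minus strand), 5′ to 3′, with the box C letters TGATGA and the box D letters CTGA in capitals. Snord107 lies at chr7:59980876-59980945, Snord64 at chr7:59978808-59978874, Snord116l1 at chr7:59894620-59894713, Gm23767 at chr7:59708469-59708562, and Gm22584 at chr7:59713534-59713625.
Snord107: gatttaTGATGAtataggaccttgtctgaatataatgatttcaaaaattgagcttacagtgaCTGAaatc
Snord64: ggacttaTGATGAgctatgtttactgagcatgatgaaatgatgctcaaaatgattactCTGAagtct
Snord116l1: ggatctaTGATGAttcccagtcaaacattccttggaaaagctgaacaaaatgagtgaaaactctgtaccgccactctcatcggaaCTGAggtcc
Gm23767: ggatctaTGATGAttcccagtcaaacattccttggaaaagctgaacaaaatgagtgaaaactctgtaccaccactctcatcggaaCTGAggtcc
Gm22584: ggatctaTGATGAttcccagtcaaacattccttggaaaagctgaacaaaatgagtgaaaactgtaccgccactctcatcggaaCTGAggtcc

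Snord116l1 carries the most common Snord116 sequence, which 30 of the 70 copies share letter for letter. Gm23767, the Snord116 copy with most counts, differs from it by G70A (the base of the most common copy, its position from 1 at the 5′ end, then the base of the named copy). Gm22584, the copy with most unique counts, is 92 bases long. Both boxes were found within 15 bases of the ends in 66 of 70 Snord116 copies (94.3%) and in 122 of 133 Snord115 copies (91.7%), against 87 of the 160 other snoRNAs of under 100 bases in the table (54.4%), which include other classes. Box D letters can occur elsewhere in a snoRNA, and a match is a description of letters only.

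Gm23560, at chr7:59617612-59617690, is 1 of 33 copies with the most common Snord115 sequence. Capitals mark the stretch whose complement is in Htr2c mRNA, and the complementary letters of Htr2c follow it.
Gm23560: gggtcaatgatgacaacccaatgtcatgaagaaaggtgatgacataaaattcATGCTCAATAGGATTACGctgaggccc
Htr2c: CGTAATCCTATTGAGCAT
The Htr2c letters are at chrX:147169689-147169706 on the plus strand, in the coding sequence of exon 5 of Htr2c-201. The 18 bases were present in 104 of the 133 Snord115 copies, and in 0 of the 70 Snord116 copies and 0 of the 160 other snoRNAs of under 100 bases. In copies of the Snord115 family the longest stretch complementary to an Htr2c transcript had a median of 18 bases (range 11 to 19), against 11 in the Snord116 family (9 to 13) and 10 in the other snoRNAs (8 to 14). Of the locus members in neither family, Gm22496 had a stretch of 16 bases, and Snord107, Snord64, Gm24983 and Gm22373 had 10 or 11. Snord115 copies with a stretch of 18 bases or more held 1540 of the 1679 counts of that family (91.7%).

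The libraries held between 454499 and 887460 counts in the table. UD-P19 replicate 2 stood apart from the other 2 of its group: it held counts for 2800 transcripts against 1679 and 1907, and 44.2% of its counts were listed as exact matches against 57% and 60.4%. P19N libraries detected 2350 to 2784 transcripts with 58.4% to 64.4% exact matches. Unique counts, read here as reads that match 1 transcript only, made up 62.1% to 78% of all counts in UD-P19 and 32.1% to 38.5% in P19N. The summed levels of the snoRNA families, the length classes and Snhg14 are therefore also given without UD-P19 replicate 2, and its part in a result was not tested. Of the noncoding RNAs listed as markers, the neuronal list had 51 rows, of which 4 passed the count minimum and 0 were called (15% of all tested transcripts were called higher and 9.02% lower), with a summed level of 7.35, 92.2 and 21.5 CPM (counts scaled to a library of 1000000) in UD-P19 and 118.7, 101.6 and 57.1 in P19N, and none of its 10 genes at 0 counts. The list for undifferentiated cells summed to 63.7, 37.8 and 24.8 CPM in UD-P19 and 5.88, 5.28 and 11.1 CPM in P19N, with none of its 6 genes that had a row at 0. Its genes Mir290a, Mir291a, Mir292a, Mir294, Mir295, Mir302c and Mir302d had no row under these names, nor had Mir124a-1 and Mir124a-2 of the neuronal list. The 1 tested row of the undifferentiated list, the microRNA host gene Mir17hg, was lower in P19N (log2 fold change -2.56, SE 0.631, adjusted p = 0.00763, edgeR quasi-likelihood test). Mir17hg made up most of the sum, with 23, 19 and 15 of 26, 32 and 15 counts in UD-P19. Lncenc1 had counts in P19N only. Mir17hg reached the count minimum through UD-P19 alone, so that its call is given as a description. The part of these differences in the results was not tested.

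Copies of the Snord116 family were higher in P19N exosomes. Their summed counts were 254, 1297 and 433 in UD-P19 replicates 1, 2 and 3 and 3192, 3900 and 2728 in P19N replicates 4, 5 and 6. Scaled by the library sizes that edgeR's TMM method gives, the summed level was 622.1, 1533 and 714.7 CPM in UD-P19 and 3751, 5145 and 3796 CPM in P19N. All 3 P19N libraries lay above all 3 UD-P19 libraries, and the highest UD-P19 library was replicate 2. The groups averaged 956.6 ± 501.3 CPM for UD-P19 and 4231 ± 792.1 CPM for P19N (SD over 3 libraries each), a log2 ratio of 2.14, or 2.66 without UD-P19 replicate 2. As a share of all counts the family took 0.0559%, 0.184% and 0.0568% in UD-P19 and 0.36%, 0.513% and 0.463% in P19N.

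**Figure D1:**
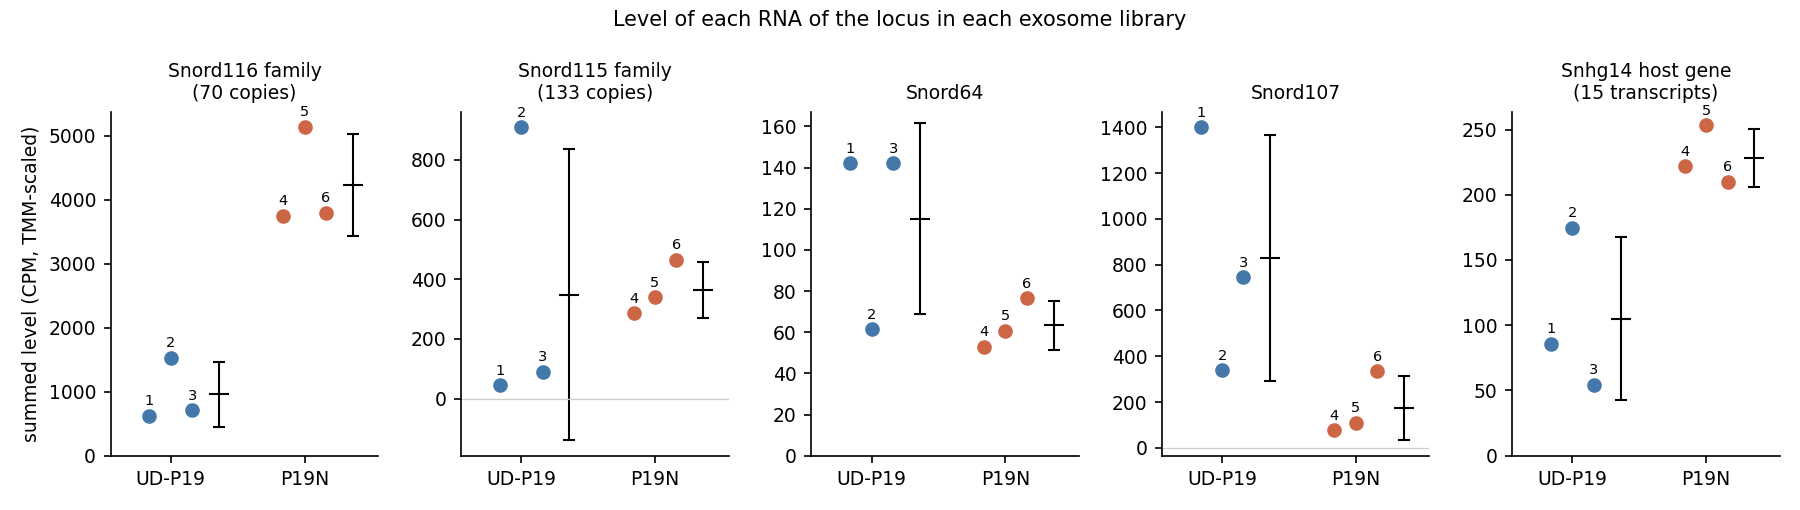
Summed level in CPM (TMM-scaled, vertical axis, a separate scale for each panel) of the Snord116 family, the Snord115 family, Snord64, Snord107 and the Snhg14 transcripts in each exosome library. Points are libraries labelled with their replicate number, and bars give the mean ± SD of 3 libraries. Snord116 is higher in all P19N libraries, Snord107 lower in all of them, and UD-P19 replicate 2 alone sets the high Snord115 level of its group.

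With each copy fitted as a feature of its own, 57 of the 70 Snord116 copies tested rose in P19N and 0 fell, with 0.05 as the highest adjusted p for a call (edgeR quasi-likelihood test, Benjamini-Hochberg adjustment over all 1286 transcripts tested). Among all tested transcripts 15% were called higher and 9.02% lower. The median log2 fold change of the 70 copies was 2.05, that of all tested transcripts 0.21, and 69 copies had a positive value. All P19N libraries lay above all UD-P19 libraries for 67 of these copies, against 25.2% of all tested transcripts. The number of calls depended on single libraries: 20 copies were called without UD-P19 replicate 1, 22 without UD-P19 replicate 3, 32 without P19N replicate 4, and 16 without P19N replicate 5, where 9.71%, 10.5%, 10.7% and 8.97% of all tested transcripts were called higher. Without UD-P19 replicate 2 it was 68 of 69 copies, with a median log2 fold change of 2.85 against 0.60 over all 1145 transcripts tested, of which 33.4% were called higher. The copies then passed the count minimum mainly through P19N, so that this count is a description. The number without P19N replicate 6 is not listed here.

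**Figure D2:**
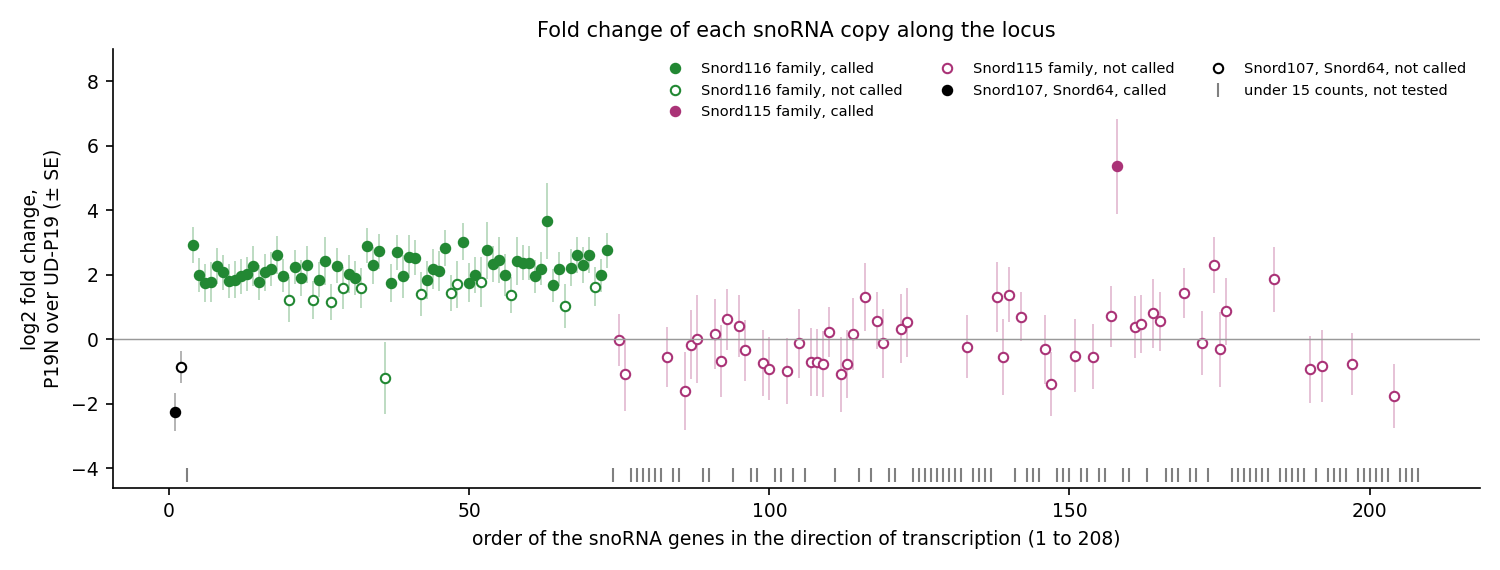
Log2 fold change of P19N over UD-P19 (vertical axis, ± SE) of each tested snoRNA against its order in the direction of transcription (horizontal axis, 1 to 208). Filled points had an adjusted p up to 0.05, open points a higher one, and ticks mark snoRNAs with under 15 counts that were not tested. Snord107 and Snord64 lie below 0, the Snord116 array lies near 2 and the Snord115 array is spread around 0.

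These calls are not independent of one another. The 70 copies hold 27 distinct sequences, and 50 copies share their sequence with at least one other. None of those 50 had a unique count, whereas 16 of the 20 copies with a sequence of their own had some. The 30 copies of the most common sequence held 187 to 218 counts each (mean 202.3 ± 9.48, SD over copies), so that reads of one sequence were spread nearly evenly over its copies. Their log2 fold changes ran from 1.64 to 2.62 although their sequence is the same. Of these copies 29 were called, the exception being Gm22285 (1.64, SE 0.599, adjusted p = 0.0574, quasi-likelihood test).

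Summing the counts of identical sequences over the whole table gave a fit with 1 value per sequence, an alternative added after the data were seen. In this fit 18 of the 27 Snord116 sequences were called higher and 0 lower, against 11.8% higher and 11.5% lower among all 1092 sequences tested. Among the 18 are those of Gm23141, Gm25944 and Snord116l12, which held under 15 counts in UD-P19 and reached the count minimum only with P19N. Their calls are a description and give no support. The most common sequence held 121, 677 and 246 counts in UD-P19 and 1617, 2013 and 1394 in P19N, with a log2 fold change of 1.90 (SE 0.458, adjusted p = 0.0101, edgeR quasi-likelihood test). Only Gm22851, with 15 counts in all, had a negative value (-1.41, SE 1.13, adjusted p = 0.386). The number called was 10 without UD-P19 replicate 1, 25 without UD-P19 replicate 2, 8 without UD-P19 replicate 3 and 8 without P19N replicate 5, where 9.59%, 24.3%, 9.02% and 8.35% of all sequences tested were called higher. Without UD-P19 replicate 2 the sequences passed the count minimum mainly through P19N, so that the 25 is a description. The numbers without P19N replicate 4 and without P19N replicate 6 are not listed here.

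Besides the most common sequence, 6 sequences were shared by 3 or 4 copies each, and each differs from it by a single base. The 4 copies with G90T, among them Gm26032, summed to 10, 32 and 30 counts in UD-P19 and 180, 238 and 189 in P19N, with the largest log2 fold change of these (2.66, SE 0.454, adjusted p = 0.00158, quasi-likelihood test). The 3 copies with C61T, among them Gm23619, held 5, 76 and 20 counts in UD-P19 and 104, 105 and 100 in P19N, with the smallest (1.29, SE 0.644, adjusted p = 0.173). Both sets of libraries stayed apart, and in the second UD-P19 replicate 2 came close to P19N. The sequences with C71T (3 copies) and T64G (4 copies) were called, at 2.03 and 1.57. Those with C16G (3 copies) and T11C (3 copies) were not, at 1.54 and 1.70 (adjusted p = 0.12 and 0.0668, quasi-likelihood test). The order of these values changed without UD-P19 replicate 2. They were then 3.11 for C71T, 3.03 for C16G, 2.88 for T11C, 2.82 for G90T, 2.52 for C61T and 2.2 for T64G.

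**Figure D3:**
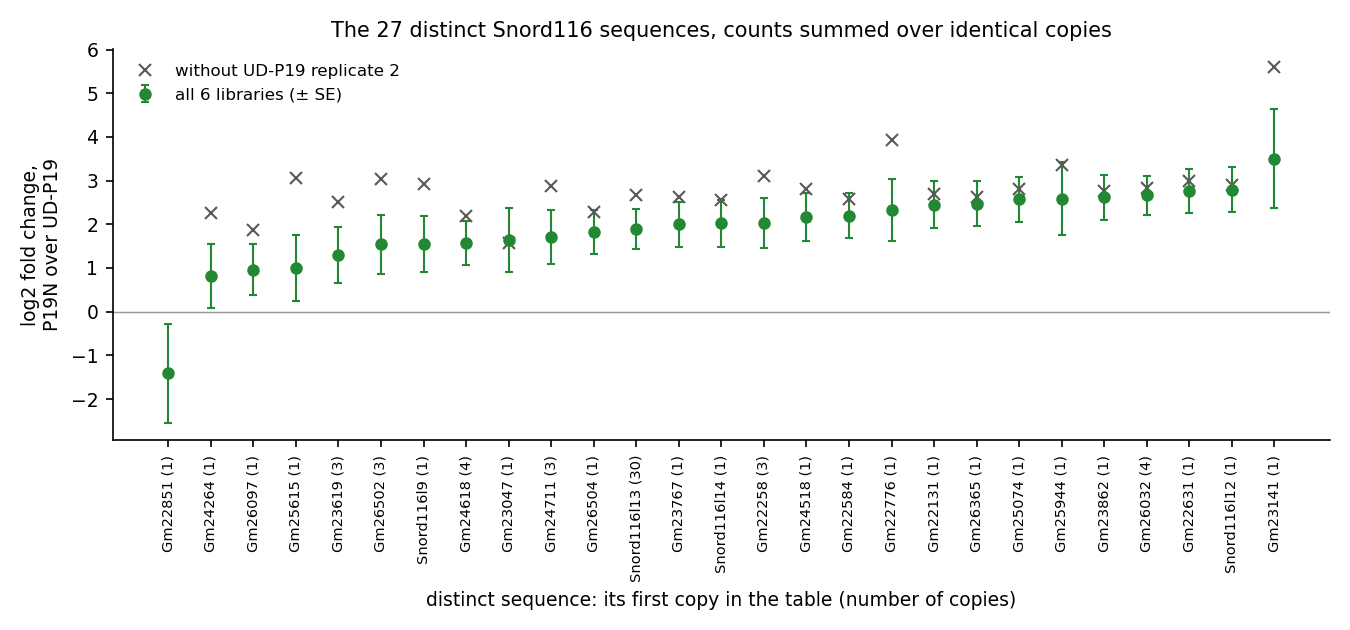
Log2 fold change of P19N over UD-P19 (vertical axis) of the 27 distinct Snord116 sequences with the counts of identical copies summed, each named by its first copy with the number of copies in brackets. Green points with bars give the value ± SE with 6 libraries and crosses the value without UD-P19 replicate 2. All values but that of Gm22851 are above 0, and for most sequences the cross is above the point.

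Fitted as 1 feature, with near-identical rows of the whole table summed in the same way, the Snord116 family had a log2 fold change of 2.04 (SE 0.477, adjusted p = 0.015, quasi-likelihood test), where 8.39% of 822 features were called higher and 11.2% lower and the median was -0.14. It was 2.81 without UD-P19 replicate 2 (adjusted p = 0.000293). The call was lost by a small margin without UD-P19 replicate 3 (1.90, adjusted p = 0.0519), P19N replicate 4 (2.19, adjusted p = 0.0549) or P19N replicate 5 (1.83, adjusted p = 0.0692).

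Among single copies, Gm23767 had the most counts, with 8, 32 and 12 in UD-P19 and 93, 119 and 68 in P19N. Its log2 fold change was 2.19 (SE 0.512, adjusted p = 0.00549, quasi-likelihood test), and its groups did not overlap. Gm22776, with the second largest total, held 4, 26 and 2 counts in UD-P19 and 75, 97 and 44 in P19N (log2 fold change 2.57, SE 0.661, adjusted p = 0.00934). These are the only 2 copies with G70A, and Gm22776 also has C16G. Both differ from the other copies in the share of their counts listed as exact matches, which was 37.0% in Gm23767 and 26.6% in Gm22776 against 60.0% to 83.3% (median 74.5%) in the other 68. This was noticed after the values were seen, and both had 0 unique counts although their sequences occur once each. The next copies by counts, Gm25157, Gm22285 and Gm26433, held 224, 218 and 218.

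The largest fold changes of the array were those of Gm23141, Gm26032 and Snord116l12. Of the 57 called copies, Gm23141, Gm25944, Gm23089 and Snord116l12 held under 15 counts in UD-P19 and reached the count minimum only with P19N. Their calls are therefore given as a description. Gm23141 held 0, 1 and 0 counts in UD-P19 and 12, 7 and 2 in P19N, a ratio of 16.8 with a 95% counting interval of 2.7 to 694.1 (exact binomial, counting error only). Gm26032 rose from 2, 8 and 5 counts to 44, 64 and 42 (log2 fold change 3.03, SE 0.568, adjusted p = 0.00117, quasi-likelihood test). Snord116l12, the first copy of the array in the direction of transcription, rose from 3, 6 and 5 counts to 52, 52 and 34 (2.94, SE 0.555, adjusted p = 0.00123). At the other end were Gm22851 (-1.19, SE 1.12, adjusted p = 0.447), Gm24264 (1.04, SE 0.68, adjusted p = 0.27) and Gm26097 (1.16, SE 0.566, adjusted p = 0.142), none of which was called. In UD-P19 replicate 2 they held 8, 23 and 22 counts, against 0 to 6 in replicates 1 and 3.

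Unique counts cover only a small part of the Snord116 array, and on them the size of the difference depended on UD-P19 replicate 2. They came to 13, 120 and 11 in UD-P19 and 93, 105 and 76 in P19N, or 2.54% to 9.25% of the family's counts in a library. UD-P19 replicate 2 held more than any P19N library while replicates 1 and 3 held far fewer. The log2 ratio of the mean unscaled unique counts was 0.93 with all libraries and 2.93 without UD-P19 replicate 2. As a share of all unique counts the family took 0.00385%, 0.0274% and 0.00185% in UD-P19 and 0.0315%, 0.043% and 0.0336% in P19N, so that the groups did not overlap on this scale, where UD-P19 replicate 2 was close to P19N. Summed over the family the log2 fold change on unique counts was 0.67 (SE 0.789, adjusted p = 0.587, quasi-likelihood test). Of the 11 copies tested 2 were called higher and 0 lower, where 14.3% of all 510 transcripts tested were called higher and 10.6% lower. The called copies were Gm22584, with 2, 11 and 2 unique counts in UD-P19 and 23, 33 and 28 in P19N (log2 fold change 2.26, SE 0.671, adjusted p = 0.0316), and Gm23141, with 0, 1 and 0 against 10, 7 and 2 (adjusted p = 0.0422). Gm23141 passed the count minimum only through P19N, so that its call is a description and no support. The call of Gm22584 was lost without any one library other than UD-P19 replicate 2 (adjusted p between 0.0741 and 0.111).

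The unique counts of UD-P19 replicate 2 sat largely on a few copies. Gm25615, Gm24264, Gm26097 and Snord116l14, the 4 copies with most unique counts in that library and chosen for it, held 29, 22, 16 and 14 of them, 67.5% of the 120. In the other libraries these 4 copies held 8.6% to 27.3%. The remaining copies held 11, 39 and 8 unique counts in UD-P19 and 85, 94 and 65 in P19N. As the 4 copies were chosen by that library, the lower value that this leaves in it is no independent comparison. Gm24518, which has C69A and G82A, was among the remaining copies with 2, 8 and 1 unique counts in UD-P19 and 22, 16 and 10 in P19N (log2 fold change 1.82, SE 0.72, adjusted p = 0.0861). Gm22131 and Gm22631, the other copies with most unique counts, had log2 fold changes of 0.95 and 0.93 on them (adjusted p = 0.439 and 0.366, quasi-likelihood test).

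**Figure D4:**
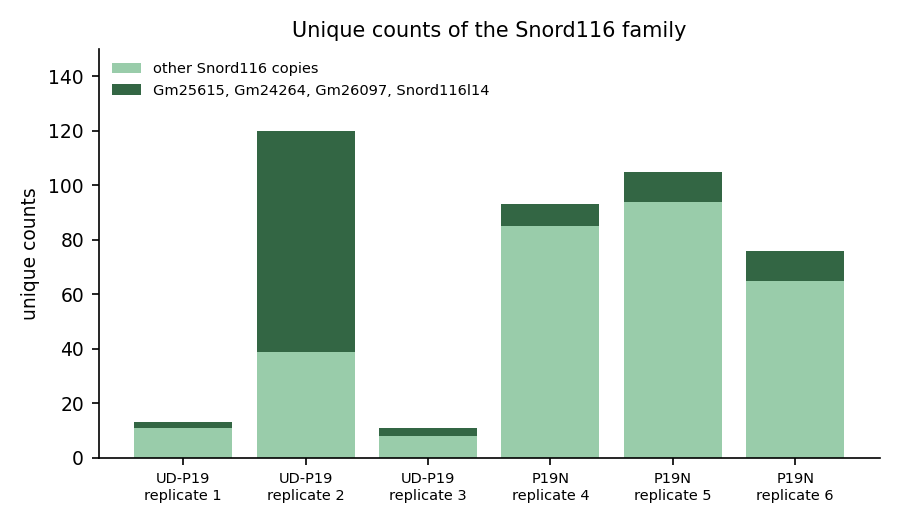
Unique counts of the Snord116 family in each library (vertical axis, counts), divided into 4 named copies (dark) and all other copies (light). The 4 copies, chosen for their counts in UD-P19 replicate 2, hold 81 of its 120 unique counts and 2 to 11 in each of the other libraries, so that the light bars follow in part from that choice.

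Summed over its copies the Snord115 array was not called over all 6 libraries, and its level in UD-P19 was set by replicate 2. Its summed counts were 18, 770 and 55 in UD-P19 and 243, 258 and 335 in P19N, or 44.1, 910.1 and 90.8 CPM and 285.6, 340.4 and 466.2 CPM. UD-P19 replicate 2 was the highest of the 6 libraries and replicates 1 and 3 were the lowest. The averages were 348.3 ± 487.1 CPM for UD-P19 and 364 ± 92.6 CPM for P19N (SD over 3 libraries each), and the UD-P19 average was 67.4 CPM without replicate 2. As a single feature the family had a log2 fold change of -0.18 (SE 0.931, adjusted p = 0.909, quasi-likelihood test). Without UD-P19 replicate 2 it was 2.55 (SE 0.401, adjusted p = 0.00128).

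By copy, 126 of the 133 members of the Snord115 family had at least 1 count, but no copy had more than 36 over all libraries. Of the 133 copies 97 share their sequence with at least 1 other, and none of these 97 had a unique count. The values of such copies are therefore not independent of one another. UD-P19 replicate 2 held counts for 125 of them, UD-P19 replicates 1 and 3 for 17 and 44, and the P19N libraries for 95, 100 and 104. Only 52 copies passed the minimum of 15 counts, of which 1 was called higher and 0 lower, where 15% and 9.02% of all tested transcripts were. Their median log2 fold change was -0.12, with 23 positive and 29 negative values. Many copies passed the minimum through UD-P19 replicate 2, so the 52 are not the whole array. Without that library 13 copies passed, mainly through P19N, and as a description 8 of them were called higher and their median was 3.11. Of all 1145 transcripts tested in that fit 33.4% were called higher, and the median was 0.6. Summed over its 33 copies, the most common Snord115 sequence held 3, 217 and 11 counts in UD-P19 and 69, 69 and 83 in P19N (log2 fold change -0.31, SE 0.945, adjusted p = 0.834, and 2.86 without UD-P19 replicate 2).

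Gm25088 was the called copy and passed the count minimum through P19N alone, so that its call is given as a description, with 0 counts in each UD-P19 library and 8, 4 and 5 in P19N, at least 4.53-fold higher when 0 counts are read as 3 over the group (adjusted p = 0.0167, quasi-likelihood test). It had 0 unique counts, and with any P19N library left out it fell under the count minimum. Gm22111, the Snord115 copy with most counts, held 0, 15 and 0 in UD-P19 and 5, 8 and 8 in P19N (log2 fold change 0.39, SE 0.964, adjusted p = 0.797). Gm22510 and Gm24566, with 34 and 33 counts, held 12 counts each in UD-P19 replicate 2 and 0 or 1 in replicates 1 and 3. Gm22111 and Gm24566 are 2 of 6 copies with the same sequence, and Gm24759 is 1 of the 33 copies of the most common one. None of these had a unique count, so that likeness or contrast between them is no separate measurement of single copies. Gm26337 was the copy with most unique counts, 0, 3 and 1 in UD-P19 and 8, 4 and 12 in P19N (log2 fold change on unique counts 2.32, SE 0.946, adjusted p = 0.0925). Gm22348 also had its largest values in P19N (unique counts 0, 3 and 0 against 4, 8 and 5, adjusted p = 0.16), whereas Gm25156 (2, 14 and 1 against 3, 0 and 3, adjusted p = 0.293) and Gm24759 (counts 0, 12 and 0 against 1, 1 and 2, log2 fold change -1.60, adjusted p = 0.337) had theirs in UD-P19 replicate 2. A low share of exact matches, again noticed after the values were seen, was also found in the 4 Snord115 copies with A34C (Gm26336, Gm26390 and Gm22510, which share a sequence, and Gm25088, which also has T51A and C79A). They had 10.3% to 37.0%, against 40% to 89.5% in the other 48 copies tested.

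Within P19N the summed Snord115 level was 285.6, 340.4 and 466.2 CPM at 8, 10 and 12 days, and the Snord116 level 3751, 5145 and 3796 CPM. With 1 library per age these values have no replicate check. Relative to Snord116 counts of the same library, Snord115 counts came to 7.09%, 59.4% and 12.7% in UD-P19 and to 7.61%, 6.62% and 12.3% in P19N. The share was 6.62% to 12.7% in 5 libraries and stood apart in UD-P19 replicate 2.

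Snord107, the first snoRNA of the locus, was lower in P19N exosomes. It had 572, 286 and 452 counts in UD-P19 and 66, 83 and 240 in P19N, or 1401, 338 and 746.1 CPM and 77.6, 109.5 and 334 CPM. The groups did not overlap, but UD-P19 replicate 2 and P19N replicate 6 lay close together. As a share of all counts these 2 libraries crossed (0.0406% and 0.0408%), and as a share of all unique counts they overlapped further (0.0653% and 0.106%, log2 ratio of the groups -0.94). Of all tested transcripts 16.8% were lower in every P19N library than in every UD-P19 library. The means were 828.3 ± 536.2 CPM (SD, n = 3) and 173.7 ± 139.7 CPM (SD, n = 3), with a log2 fold change of -2.25 (SE 0.592, adjusted p = 0.0109, quasi-likelihood test). Each of its 1699 counts was unique, and on unique counts the value was -1.96 (SE 0.612, adjusted p = 0.0387). The call was lost without P19N replicate 5 (-2.09, adjusted p = 0.0598). In the fit with families summed it was -2.20 (adjusted p = 0.0301), with -2.47 (adjusted p = 0.0082) without UD-P19 replicate 2, and it was not called there without UD-P19 replicate 1 (adjusted p = 0.102), UD-P19 replicate 3 (0.0952), P19N replicate 4 (0.144) or P19N replicate 5 (0.129).

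Snord64, the next snoRNA of the locus, had 58, 52 and 86 counts in UD-P19 and 45, 46 and 55 in P19N, and all 342 were unique. In CPM this was 142.1, 61.5 and 142 against 52.9, 60.7 and 76.5, so that UD-P19 replicate 2 lay within the P19N range. As a share of all snoRNA counts the groups did not overlap (0.17%, 0.15% and 0.164% in UD-P19, 0.0812%, 0.101% and 0.119% in P19N). As a share of all unique counts they overlapped and the direction turned (log2 ratio 0.42). Its log2 fold change was -0.85 (SE 0.488, adjusted p = 0.203, quasi-likelihood test) and was not called. In the fit with families summed it was -0.83 (adjusted p = 0.193), and -1.02 (adjusted p = 0.0353) without UD-P19 replicate 2.

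The contrast between snoRNAs of the same locus can be read without any scaling between libraries. Snord116 counts were 0.444, 4.53 and 0.958 times the Snord107 counts in UD-P19 and 48.4, 47 and 11.4 times in P19N. The mean log2 difference was 4.57, and the groups did not overlap, with an exact two-sided permutation test giving p = 0.1, the smallest possible with 3 against 3 libraries (adjusted p = 0.133 over the 8 ratios computed). Relative to the summed counts of 160 other snoRNAs of under 100 bases, Snord116 came to 1.16%, 6.33% and 1.28% in UD-P19 and 11%, 16.4% and 10.3% in P19N, and Snord107 to 2.61%, 1.4% and 1.34% and then 0.227%, 0.348% and 0.904%. Of those other snoRNAs 142 were tested, 3 were called higher and 26 lower, and their median log2 fold change was -0.51, where 15% and 9.02% of all tested transcripts were called and the median was 0.21.

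Taking the length groups as they were defined, the snoRNAs of 88 bases or more summed to 622.1, 1535 and 714.7 CPM in UD-P19 and 3751, 5150 and 3802 CPM in P19N, a log2 ratio of 2.14 (2.66 without UD-P19 replicate 2). Those under 88 bases summed to 1587, 1310 and 978.8 CPM in UD-P19 and 416, 510.5 and 876.7 CPM in P19N, a log2 ratio of -1.10 (-1.09 without UD-P19 replicate 2). The groups did not overlap on this scale in either length class, but as a share of all counts the shorter class overlapped (0.143%, 0.157% and 0.0778% in UD-P19, 0.0399%, 0.0509% and 0.107% in P19N). The single snoRNA Snord107 held 1699 of the 3720 counts of the shorter class, and the 133 members of the Snord115 family held 1679. Of the shorter group 54 were tested, 1 was called higher and 1 lower, where 15% and 9.02% of all tested transcripts were. On unique counts the longer class had a log2 ratio of 0.75 after scaling, and of 0.94 unscaled, which became 2.94 without UD-P19 replicate 2. The shorter class held 632, 417 and 549 unique counts in UD-P19 and 139, 146 and 328 in P19N, which did not overlap. As a share of all unique counts it overlapped, with 0.187%, 0.0953% and 0.0923% in UD-P19 and 0.0471%, 0.0598% and 0.145% in P19N (log2 ratio -0.57).

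Most counts of the host gene Snhg14 fell on transcripts whose exons hold Snord116 sequence. Its 15 transcripts summed to 35, 148 and 33 counts in UD-P19 and 189, 192 and 151 in P19N, and 305 and 226 of these 748 counts fell on Snhg14-206 and Snhg14-214. Scaled, the log2 ratio of the sums was 1.12, and 1.70 without UD-P19 replicate 2. Of the 8 transcripts that passed the count minimum 2 were called higher and 0 lower, where 15% and 9.02% of all tested transcripts were. Snhg14-206 held 6, 35 and 12 counts in UD-P19 and 84, 96 and 72 in P19N (log2 fold change 2.05, SE 0.524, adjusted p = 0.00921, quasi-likelihood test). Snhg14-214 held 7, 36 and 4 counts in UD-P19 and 65, 65 and 49 in P19N (1.74, SE 0.599, adjusted p = 0.0445). Both are higher in all P19N libraries than in any UD-P19 library.

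Both of these transcripts overlap a Snord116 gene on the same strand. The last exon of Snhg14-206 holds all 94 bases of Gm22128 (chr7:59771656-59771749), and an exon of Snhg14-214 holds 93 of the 94 bases of Gm22285 (chr7:59678509-59678602), and both of these copies have the most common sequence. None of the other 13 transcripts shares a 30-base word with a snoRNA of the locus. Unique counts, which reads lying wholly in a shared sequence would not give, were 1, 16 and 2 in UD-P19 and 30, 27 and 19 in P19N for Snhg14-206 (log2 fold change 1.76, SE 0.761, adjusted p = 0.111) and 10 in all for Snhg14-214. In the unique fit 3 Snhg14 transcripts were tested and 0 called, where 14.3% of all 510 transcripts tested were called higher and 10.6% lower. Without UD-P19 replicate 2 the unique value of Snhg14-206 was 3.73, a description only, since the transcript then passed the count minimum through P19N alone. Over all 15 transcripts the log2 ratio of unscaled unique counts was 1.09, and 2.61 without that library. The call of Snhg14-206 was lost without UD-P19 replicate 1 (1.54, adjusted p = 0.0743), UD-P19 replicate 3 (1.65, adjusted p = 0.0726), P19N replicate 4 (1.92, adjusted p = 0.0519) or P19N replicate 5 (1.72, adjusted p = 0.0846), and that of Snhg14-214 without any one library other than UD-P19 replicate 2 (adjusted p between 0.0716 and 0.23). Without that library the value of Snhg14-206 was 2.82 (adjusted p = 9.59e-05, quasi-likelihood test). That of Snhg14-214 was 2.94, a description only, since this transcript then reached the count minimum only with P19N.

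The other tested Snhg14 transcripts had low counts and were not called. Snhg14-201 held 3, 7 and 0 counts in UD-P19 and 16, 9 and 3 in P19N (1.14, SE 0.866, adjusted p = 0.343), of which 32 of 38 were unique. Snhg14-209 and Snhg14-211, which lie upstream of the Snord116 array, had 31 counts each and log2 fold changes of -0.77 (adjusted p = 0.48) and -1.48 (adjusted p = 0.16). Snhg14-208, Snhg14-210 and Snhg14-215 had 15, 24 and 33 counts and values of -1.52, -0.54 and -0.02. A level of 3 counts was worth 3.53 to 7.35 CPM depending on the library, and these 6 transcripts held 15 to 38 counts over all libraries.

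**Figure D5:**
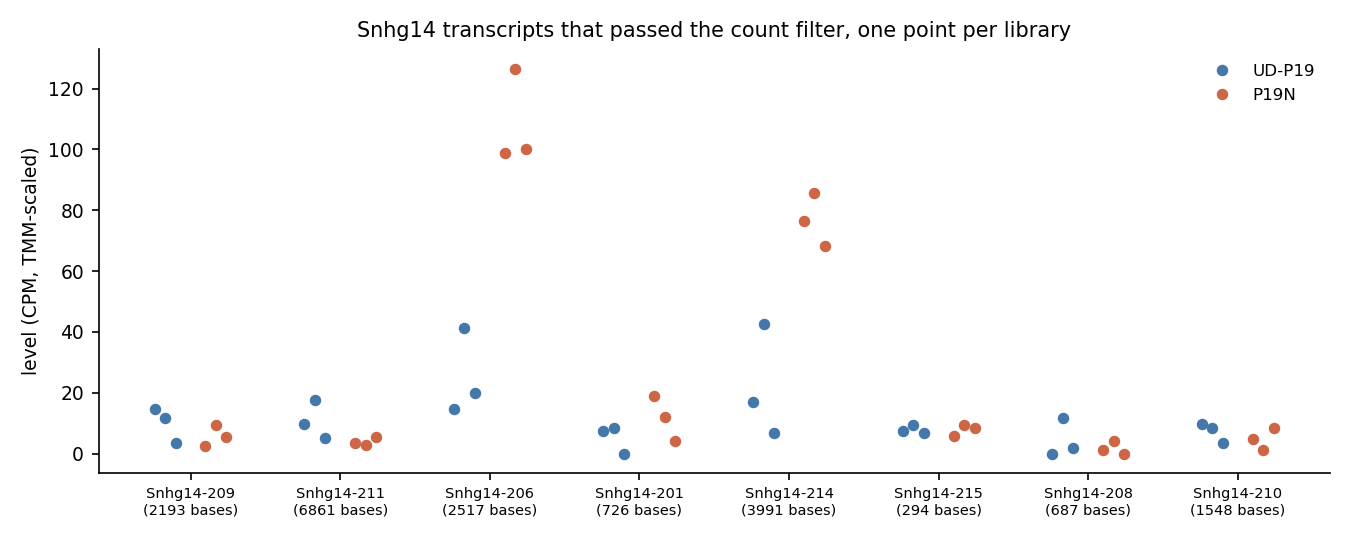
Level in CPM (TMM-scaled, vertical axis) of the 8 Snhg14 transcripts that passed the count minimum, in the direction of transcription, with one point per library. The P19N points lie above the UD-P19 points in Snhg14-206 and Snhg14-214, whose exons hold a Snord116 copy, and overlap them in the other 6.

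Other imprinted noncoding RNAs were compared as a list. The snoRNAs of the imprinted Meg3-Rian-Mirg locus on chromosome 12, which is expressed from the maternal chromosome, had 14 members, of which 7 were tested, 1 was called higher (Gm22981: 0, 3 and 2 counts in UD-P19 and 17, 21 and 5 in P19N, log2 fold change 2.74, adjusted p = 0.0235) and 1 lower (Gm23787: 8, 23 and 9 against 2, 2 and 4, -2.52, adjusted p = 0.0129). Each of the pair reached the count minimum through the group where it is high, so that its call is given as a description. With 7 tested these counts are near the 15% higher and 9.02% lower of all transcripts. The member with most counts, AF357341, held 8, 15 and 15 counts in UD-P19 and 8, 19 and 8 in P19N. The median log2 fold change of the 7 was 0.34. The summed level of all 14 members was 58.8, 148.9 and 77.6 CPM in UD-P19 and 78.7, 133.2 and 64 CPM in P19N, again with UD-P19 replicate 2 highest. Of 61 transcripts of imprinted long noncoding genes, which include Snhg14, 16 were tested and the 2 called were Snhg14-206 and Snhg14-214, a share no larger than the 15% called higher among all tested transcripts. Among the uncalled were Kcnq1ot1-201, with 171 counts (-0.82, SE 0.665, adjusted p = 0.368), and Meg3-209, with 119 (0.58, SE 0.711, adjusted p = 0.571).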

How the data were processed

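The authors ligated adaptors to exosomal RNA with a small RNA kit, sequenced paired reads, trimmed and joined them, and matched them to the GRCm38 noncoding transcripts in CLC Genomics Workbench with default parameters. They deposited counts per transcript without normalization, with further counts named unique and exact that no source used here defines. The 3 columns used are named expression values, unique mature 5 and exact mature 5. Unique counts were read as reads matching 1 transcript, since rows that share their whole sequence in the locus held 0. How shared reads were divided is not given in the sources used here. Deposited group means, fold changes and p-values hold the authors' comparison and were not used.

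Transcripts were matched by identifier to GENCODE M21 (5777 of 5880). Those with at least 15 counts in all were tested with edgeR 4.0.16 (R 4.3.3; TMM, quasi-likelihood test, no covariate, Benjamini-Hochberg adjustment, called at 0.05), where the study used edgeR's exact test, which is among the alternatives with DESeq2 1.42.0. Families came from BLAST 2.17.0, and summaries from Python 3.11.15, numpy 2.4.6 and pandas 2.3.3 and figures from matplotlib 3.10.9. The fits were tested on simulated data. CPM are counts scaled to 1000000 per TMM-scaled library. Read counts carry no molecular identifiers, so intervals cover counting error only.

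Named were, in each length group, the 5 members with most counts and with most unique counts and those with the 3 largest and 3 smallest log2 fold changes, all Snhg14 transcripts tested, all members in neither family, and in each other list the member with most counts and those called. Members and lists were chosen with earlier results of these data known.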

Additional observations from a re-analysis of the deposited data

How the results depend on the processing

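No paired analysis was made, because no source used here links a UD-P19 library to a P19N library. The snoRNAs of 88 bases or more called higher numbered 57, and 44 to 60 under other filters, scalings, tests and exact counts, and 16 to 68 with one library left out, but 2 on unique counts under either scaling and 0 to 5 there with one library left out. Of those under 88 bases 1 was called higher, but 0 with filterByExpr, DESeq2, exact counts or unique counts (either scaling), 2 with the exact test, and 0 to 8 with one library left out (0 to 2 on unique counts). The highest of these counts, 8 and 2, and the 68 and 5 above, are those without UD-P19 replicate 2, where copies reached the minimum of 15 counts mainly through P19N, so they give no support. There 1 was called lower, but 2 without a filter, and 0 to 1 with one library left out, also on unique counts. Snhg14 transcripts called higher were 2, but 1 without a filter, with DESeq2 size factors or with total counts only, 0 on unique counts under either scaling, and 0 to 2 with one library left out (0 to 1 on unique counts).

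The Snord116 family's log2 fold change was 0.67 on unique counts and 1.83 to 2.81 with one library left out. That of the Snord115 family was 0.00 on exact counts and -0.61 to 2.55 with one library left out, positive without UD-P19 replicate 2 or P19N replicate 4 (0.03). Snord107 was at -1.94 with total counts only in the family fit (adjusted p = 0.0581) and at -2.98 to -1.53 with one library left out, and Snord64 at -1.02 to -0.52. The log2 ratio of the longer group was 0.75 on unique counts, and that of Snord64 turned to 0.42 as a share of all unique counts. Snord116l14, called higher on counts (2.19), was at -1.24 on unique counts (adjusted p = 0.37, edgeR quasi-likelihood test). The other values that turned their sign were those of members not called in the 6 libraries: Snhg14-215 (0.08 with total counts only, 0.20 on exact counts, -0.37 to 0.35 with one library left out), Gm22111 (-0.42 to 5.71), Gm22510 (-0.12 to 5.73) and Gm24566 (-0.20 to 3.11), each with one library left out, and on unique counts Gm25615 (-0.94, -0.92 with DESeq2 size factors, and -1.47, -1.56, -0.97, -0.95 and -0.96 without UD-P19 replicates 1 and 3 and P19N replicates 4, 5 and 6, but 5.44 without UD-P19 replicate 2), Gm24264 (-2.94, -2.94, and -3.40, -3.57, -2.44, -2.88 and -3.89 in the same order) and Gm26097 (-3.0, -3.01, and -3.53, -3.56, -2.52, -2.43 and -5.64), the latter 2 falling under the count minimum without UD-P19 replicate 2. The highest values of Gm22111, Gm22510 and Gm24566 were those without UD-P19 replicate 2. In UD-P19 replicates 1 and 3, Gm22111 and Gm22510 held 0 counts and Gm25615 held 0 unique counts. The values of 5.71, 5.73 and 5.44 are therefore no exact fold changes and are a description only. Scaling by DESeq2 size factors moved the median of all tested transcripts from 0.21 to 0.05. The causes were not tested. The Snord115 copies held at most 36 counts each.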
